A study of Mus musculus with 15 samples.

Results

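The MS4A genes encode small membrane proteins that cross the membrane several times and sit in the cell surface or in internal membranes. Ms4a1 encodes CD20 of B cells and Ms4a2 encodes a chain of the mast cell receptor for IgE. Several mouse members are transcribed in T cells, while Ms4a6c and Ms4a6d are better known from monocytes and macrophages, so their levels in sorted T cells are read beside macrophage markers. Here 5 members were followed, Ms4a4b, Ms4a4c, Ms4a6b, Ms4a6c and Ms4a6d, chosen by symbol in the array's annotation out of 18193 genes measured. Where a gene had several probe sets, the one with the highest mean over the 15 arrays was used.

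RNA of sorted mouse thymocytes was measured on 15 expression arrays, 3 for each of 5 groups, all from young adult C57BL/6 mice. The M2 cells (Qa2+ CD69-) and the SM&M1 cells (Qa2- CD69+) were CD4 single-positive thymocytes of Rag2-GFP BAC transgenic mice, whose GFP fades in older cells, sorted with antibodies to NK1.1, CD25 and GL3 and a GFP gate that leave out natural killer T, regulatory T, gamma-delta T and recirculating cells. The Tak1-deficient SM&M1 cells (Qa2- CD69+) came from Tak1f/f CD4Cre mice, in which Cre driven by the CD4 promoter deletes Map3k7, the gene of the kinase TAK1, in thymocytes. The labels name the exclusion gates only for the Rag2-GFP mice. The PostDP cells (CD69+ TCRβ+) and the PreDP cells (CD69- TCRβ-) were double-positive thymocytes, which carry both CD4 and CD8, after and before positive selection, from B2m-/- mice that select only MHC class II-restricted CD4 cells. Mouse line therefore changed together with stage between PostDP and SM&M1, and together with genotype between Tak1-deficient SM&M1 and SM&M1, and these cannot be told apart. The labels call the arrays biological replicates without saying that each came from its own animal, so p-values measure the spread between these arrays.

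All values below are log2(signal + 16) unless another scale is named, and a difference is on that scale, where it understates changes of dim genes. Each array had been scaled to the same trimmed mean, and its median signal lay between 80.52 and 121.46 in 14 arrays and at 167.81 in Tak1-deficient SM&M1 replicate 2. That array also correlated at only 0.873 and 0.879 with the others of its group, against at least 0.965 among arrays of every other group, so results that rest on it are given without it as well. The deleted gene matched its labels: Map3k7 read 4.76, 6.07 and 5.35 in the Tak1-deficient arrays, against 10.40, 10.46 and 10.42 in SM&M1 arrays. The CD8 gene Cd8a averaged 7.79 in SM&M1 and 12.74 in PostDP arrays, and the T cell gene Cd3e averaged 12.95 in SM&M1 and 13.05 in PostDP arrays. A call below means a Benjamini-Hochberg adjusted p under 0.05 over the 11871 genes tested, from limma with all 15 arrays in 1 fit. These are populations of cells, so fewer cells carrying a transcript and less RNA per cell cannot be told apart.

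The members lie close together on chromosome 19, and their start regions share letters in pairs, one pair over its length and the other over 1 run. In RefSeq's GRCm38.p6 table, 4 of the 5 members had an entry. The windows cover the 250 bases before the start on the plus strand: chr19:11407411-11407660 for Ms4a4c, chr19:11443308-11443557 for Ms4a4b, chr19:11469118-11469367 for Ms4a6c and chr19:11518309-11518558 for Ms4a6b. In the first pair the capitals mark matches to the motifs described after it, and in the second pair a run of letters that both windows hold.
Ms4a4c: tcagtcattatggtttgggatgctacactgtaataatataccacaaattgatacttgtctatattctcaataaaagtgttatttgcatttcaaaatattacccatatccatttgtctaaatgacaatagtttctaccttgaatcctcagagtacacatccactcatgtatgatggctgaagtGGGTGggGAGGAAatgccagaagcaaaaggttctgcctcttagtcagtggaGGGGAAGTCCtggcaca
Ms4a4b: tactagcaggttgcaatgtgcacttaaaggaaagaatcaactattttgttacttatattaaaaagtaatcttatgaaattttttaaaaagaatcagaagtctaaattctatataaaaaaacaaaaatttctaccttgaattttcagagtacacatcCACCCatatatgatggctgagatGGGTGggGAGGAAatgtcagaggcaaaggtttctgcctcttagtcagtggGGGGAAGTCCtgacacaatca
Ms4a6c: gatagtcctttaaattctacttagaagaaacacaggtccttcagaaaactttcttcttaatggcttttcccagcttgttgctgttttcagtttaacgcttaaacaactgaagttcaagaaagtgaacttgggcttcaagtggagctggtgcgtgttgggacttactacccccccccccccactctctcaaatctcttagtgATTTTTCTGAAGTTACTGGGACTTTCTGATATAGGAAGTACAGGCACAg
Ms4a6b: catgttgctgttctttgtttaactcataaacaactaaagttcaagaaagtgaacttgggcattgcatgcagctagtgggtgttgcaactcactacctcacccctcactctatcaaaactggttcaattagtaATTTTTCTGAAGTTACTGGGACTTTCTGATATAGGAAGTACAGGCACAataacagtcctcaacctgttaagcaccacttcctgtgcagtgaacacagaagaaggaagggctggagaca
Ms4a6b and Ms4a6c share a run of 48 bases, which begins 118 bases before the start of Ms4a6b and 49 bases before that of Ms4a6c. No other of the 32851 windows in the table held that run, while over the whole alignment the pair was 47.4% identical. Ms4a4b and Ms4a4c were 70.8% identical over their alignment, with a longest shared run of 20 bases, whereas the other 60 pairs of a member with a family window ran from 45.8% to 53.1%, the range that holds the 47.4% of Ms4a6b and Ms4a6c, and shared at most 12 bases. Letters that resemble an NF-kB site, GGG, any 5 bases and CC, read on both strands like the other motifs and apart from them, matched once in each of Ms4a4c and Ms4a4b, as GGGGAAGTCC 17 and 21 bases before the start, once in Ms4a6c, as GGCTTTTCCC 189 bases before (in lower case above), and not in Ms4a6b. That pattern was in 45.8% of all windows. The letters GAGGAA, part of sites of the myeloid and lymphoid factor PU.1, matched once in Ms4a4c and Ms4a4b and not in the other pair, against 23.3% of all windows. CACCC, part of KLF sites, matched 1 time in Ms4a4c, 2 times in Ms4a4b, 2 times in Ms4a6b and not in Ms4a6c, against 52.0% of all windows. The interferon response core, GAAA, any 2 bases and GAAA, was in none of the 4 windows and in 2.98% of all windows. A match describes letters only.

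Ms4a4b, a T cell surface protein reported to associate with the receptor GITR, stepped up at each stage. Its arrays read 9.91, 9.74 and 9.79 in PreDP, 12.01, 11.84 and 11.74 in PostDP, 13.85, 13.85 and 14.09 in SM&M1, and 14.38, 14.51 and 14.88 in M2 cells. No stage overlapped the one before it. PostDP exceeded PreDP by 2.05 ± 0.20 (SE; adjusted p = 1.06e-05), SM&M1 exceeded PostDP by 2.07 ± 0.20 (adjusted p = 1.83e-05), and the gap of M2 over SM&M1, 0.66 ± 0.20, did not pass (adjusted p = 0.130).

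Ms4a4c, its close relative and neighbour, ran later. PreDP arrays read 5.83, 6.78 and 6.43 and none was above its array's median, PostDP arrays read 7.09, 7.22 and 7.46, SM&M1 arrays 9.84, 9.40 and 9.38, and M2 arrays 11.10, 11.03 and 11.24. The 4 stages did not overlap. The step into SM&M1 was 2.28 ± 0.23 (adjusted p = 2.97e-05), and the step into M2, 1.58 ± 0.23 (adjusted p = 0.00255), passed too, the 39th highest of the 11871 differences. PostDP exceeded PreDP by 0.91 ± 0.23 (adjusted p = 0.0156). Ms4a4c entered the test through arrays outside PreDP, so its differences from PreDP have the limit of the filter.

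Ms4a6b, another member transcribed in T cells, was above its array's median in all 15 arrays. Its arrays read 11.36, 11.42 and 11.24 in PreDP, 12.33, 12.11 and 12.11 in PostDP, 13.12, 13.24 and 13.11 in SM&M1, and 13.87, 14.08 and 14.17 in M2 cells. The stages did not overlap. PostDP exceeded PreDP by 0.85 ± 0.23 (adjusted p = 0.0232), SM&M1 exceeded PostDP by 0.97 ± 0.23 (adjusted p = 0.0137), and the gap of M2 over SM&M1, 0.88 ± 0.23, did not pass (adjusted p = 0.0706).

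Ms4a6c, known from myeloid cells, was above its array's median in all 15 arrays as well. It read 7.34, 7.29 and 7.54 in PreDP, 8.02, 7.75 and 7.64 in PostDP, 8.93, 8.90 and 8.54 in SM&M1, and 9.48, 9.42 and 9.82 in M2 cells. Each stage lay above the one before. SM&M1 exceeded PostDP by 0.99 ± 0.17 (adjusted p = 0.00206) and M2 exceeded SM&M1 by 0.78 ± 0.17 (adjusted p = 0.0280), while the gap of PostDP over PreDP, 0.42 ± 0.17, did not pass (adjusted p = 0.136).

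Ms4a6d was above its array's median in only 5 arrays, through which it passed the filter for testing (at least 3 arrays), 3 of M2 and 2 of SM&M1. Its arrays read 4.32, 5.71 and 4.57 in PreDP, 6.01, 5.78 and 4.54 in PostDP, 7.22, 6.66 and 7.20 in SM&M1, and 8.20, 8.22 and 8.43 in M2 cells. PostDP overlapped PreDP, and SM&M1 lay above PostDP. A gene that passes through the groups where it is high is bound to differ there, so the call of SM&M1 over PostDP, 1.58 ± 0.47 (adjusted p = 0.0469), supports nothing. That call was lost in 12 of 17 alternatives. For this reason the counts and medians that follow are over the other 4 members, and Ms4a6d is given by its values.

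**Figure D1:**
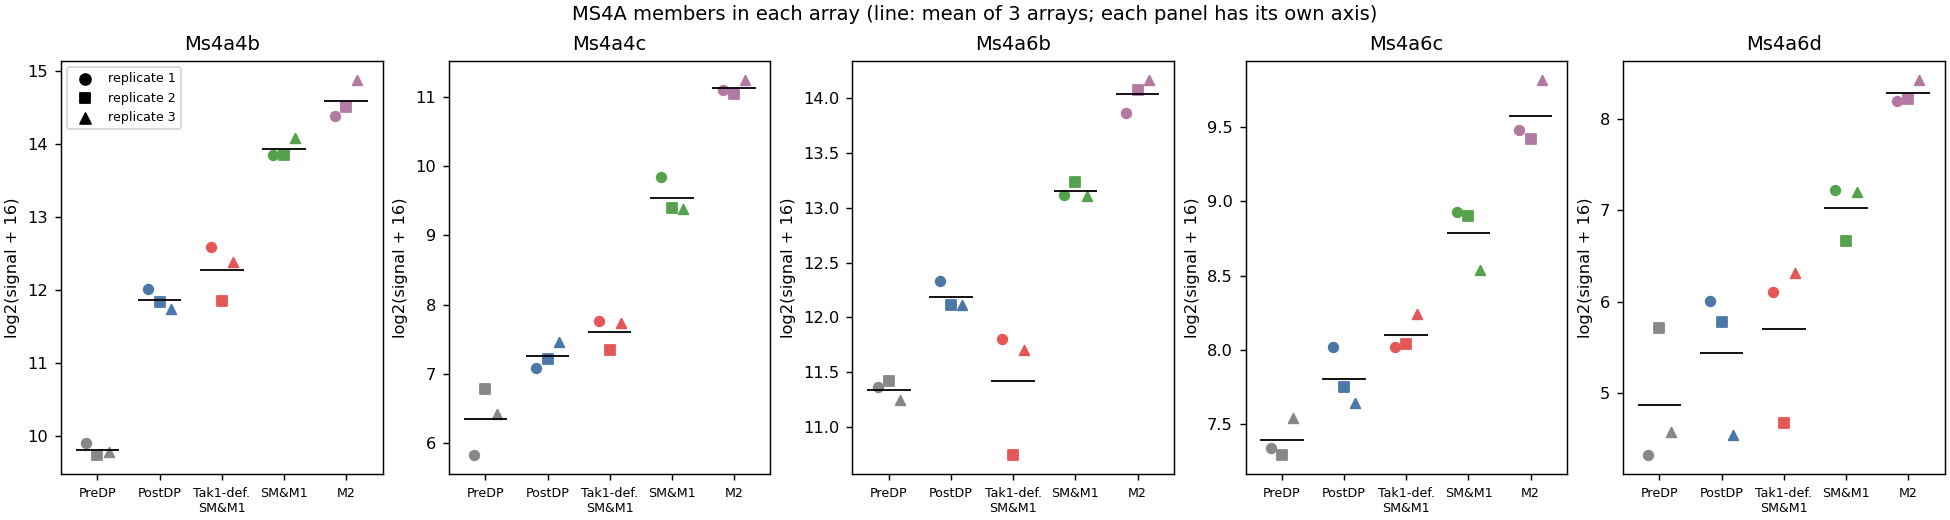
Log2(signal + 16) of the 5 members in the 15 arrays, one point per array and one panel per gene, with group means. M2 arrays stand above SM&M1 arrays for each member, and Tak1-deficient SM&M1 arrays stand below SM&M1 arrays for each member.

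With PostDP against PreDP, 3 of these 4 members rose, where 7.35% of all genes tested did. Their median difference was 0.88, against 0.01 over all genes tested, and 4 of 4 had every PostDP array above every PreDP array, where 19.1% of all genes did. These counts and the median include Ms4a4c, whose place above PreDP has the limit of the filter and adds nothing. With SM&M1 against PostDP, 4 of 4 rose, where 7.84% of all genes rose, and their median was 1.53 against 0.03. The 4 had every SM&M1 array above every PostDP array, where 23.1% of all genes did. With M2 against SM&M1, 2 of 4, Ms4a4c and Ms4a6c, rose, where 0.952% of all genes did. The 4 had every M2 array above every SM&M1 array, where 10.5% of all genes did, and their median was 0.83 against -0.01. Ms4a6d lay 1.26 ± 0.47 higher in M2 than in SM&M1 cells, which did not pass (adjusted p = 0.298). Same-numbered arrays of M2 and SM&M1 deviated together, so the replicate number was also fitted as a block. The blocked fit of all arrays called 1 of the 4, and the blocked fit of these groups alone called 3 of the 4, Ms4a4b (adjusted p = 0.0421), Ms4a4c (0.0273) and Ms4a6b (0.0304). In that fit Ms4a6d had an adjusted p of 0.0291, which has the limit of the filter. Ms4a6c lost its call when any 1 of these 6 arrays was left out, with adjusted p from 0.0607 to 0.154.

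Over the whole path, M2 exceeded PreDP by 4.78 ± 0.20 for Ms4a4b, 4.78 ± 0.23 for Ms4a4c, 2.70 ± 0.23 for Ms4a6b, 2.19 ± 0.17 for Ms4a6c and 3.42 ± 0.47 for Ms4a6d. The 4 members other than Ms4a6d rose, with adjusted p from 1.92e-09 to 1.24e-06, where 14.6% of all genes did. Ms4a4c and Ms4a6d had no PreDP array above the median, so their differences here have the limit of the filter. These cells came from different mouse lines.

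TAK1 is a kinase between several surface receptors and NF-kB and MAP kinases, and mice that lack it in thymocytes are known to have few mature T cells, so the comparison asks how the members stand in cells of the same Qa2 and CD69 sort without it. Of the 4 members other than Ms4a6d, 4 had every Tak1-deficient SM&M1 array below every SM&M1 array, where 9.01% of all genes did. The SM&M1 arrays are those of the stage comparisons, so these results are not independent of them. The difference passed for 3 of 4, where 1.26% of all genes fell, and their median was -1.70, against 0.05 over all genes.

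Ms4a4b read 12.59, 11.85 and 12.38 in Tak1-deficient SM&M1 arrays, against 13.85, 13.85 and 14.09 in SM&M1 arrays, a difference of -1.66 ± 0.20 (adjusted p = 0.00119). Ms4a4c read 7.76, 7.34 and 7.73 in Tak1-deficient SM&M1 arrays, against 9.84, 9.40 and 9.38 in SM&M1 arrays, a difference of -1.93 ± 0.23 (adjusted p = 0.00119). Ms4a6b read 11.80, 10.74 and 11.70 in Tak1-deficient SM&M1 arrays, against 13.12, 13.24 and 13.11 in SM&M1 arrays, a difference of -1.74 ± 0.23 (adjusted p = 0.00187). These 3 members fell by the test. Ms4a6c read 8.02, 8.04 and 8.24 in Tak1-deficient SM&M1 arrays, against 8.93, 8.90 and 8.54 in SM&M1 arrays, and its difference of -0.69 ± 0.17 did not pass (adjusted p = 0.0608). Ms4a6d read 6.11, 4.67 and 6.32 in Tak1-deficient SM&M1 arrays, against 7.22, 6.66 and 7.20 in SM&M1 arrays, and its difference of -1.32 ± 0.47 did not pass (adjusted p = 0.182). The arrays of both groups stood apart for these members too, but Ms4a6d entered the test through SM&M1 and M2 arrays, so its place below adds nothing.

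Without Tak1-deficient SM&M1 replicate 2 the differences were -1.45 for Ms4a4b (adjusted p = 0.000895), -1.79 for Ms4a4c (0.00236) and -1.41 for Ms4a6b (0.000229). Without that array the difference of Ms4a6d was -0.81, against -1.32 with it. The calls rest on the spread shared by all 15 arrays: a limma fit of these 6 arrays alone called 0 members and 5 genes in all, with each member at an unadjusted p under 0.05 and adjusted p of 0.146 for Ms4a4b, 0.0882 for Ms4a4c and 0.222 for Ms4a6b. The sorted cells also differed in lineage genes, with Cd4 averaging 11.30 in Tak1-deficient SM&M1 arrays and 12.22 in SM&M1 arrays, a difference of -0.92 ± 0.19 (adjusted p = 0.0284). Cd8a averaged 9.63 in Tak1-deficient SM&M1 arrays and 7.79 in SM&M1 arrays, a difference of 1.84 ± 0.43 that did not pass (adjusted p = 0.0510). The part of these differences in the members' values was not tested.

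**Figure D2:**
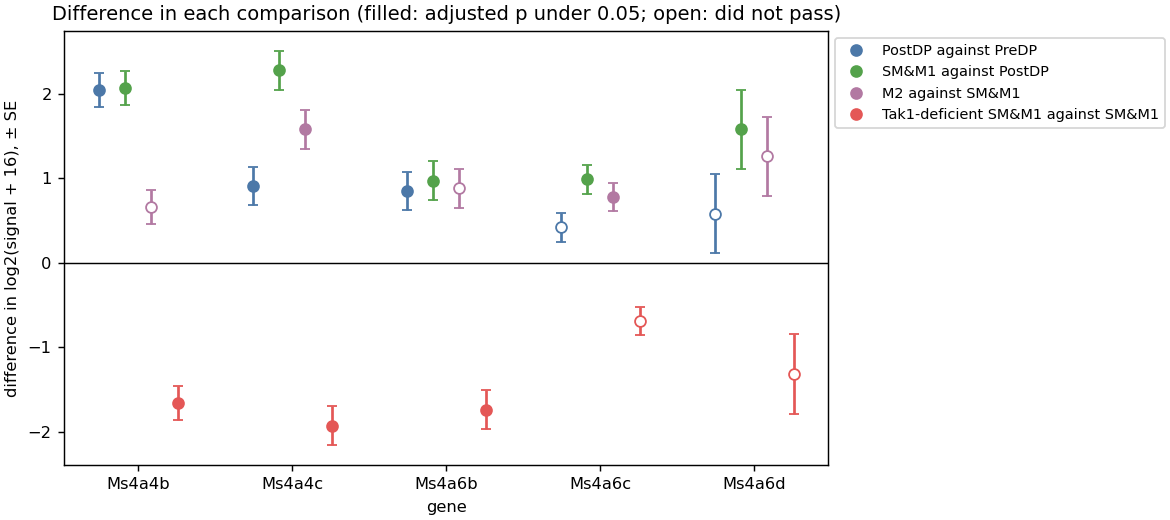
Differences in log2(signal + 16) with standard errors for the 5 members (x axis) in 3 comparisons of adjacent stages and in Tak1-deficient SM&M1 against SM&M1, filled where the adjusted p is under 0.05. Ms4a4b, Ms4a4c and Ms4a6b are filled below 0 where the Tak1-deficient cells are compared, at -1.66, -1.93 and -1.74.

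The Tak1-deficient cells were also set against the double-positive stages. Ms4a4b averaged 12.27 ± 0.38 in Tak1-deficient SM&M1, against 11.86 ± 0.14 in PostDP arrays (SD, n = 3 each), and the difference of 0.41 did not pass (adjusted p = 0.198). Ms4a4c averaged 7.61 ± 0.24 in Tak1-deficient SM&M1, against 7.26 ± 0.19 in PostDP arrays (SD, n = 3 each), and the difference of 0.35 did not pass (adjusted p = 0.343). For both genes the arrays of these groups overlapped. Without Tak1-deficient SM&M1 replicate 2 the difference of Ms4a4b was 0.62 and passed (adjusted p = 0.0224), and that of Ms4a4c was 0.49 (0.199). Ms4a6b averaged 11.42 ± 0.58 in Tak1-deficient SM&M1, against 12.19 ± 0.13 in PostDP arrays (SD, n = 3 each), and was lower by the test, -0.77 ± 0.23 (adjusted p = 0.0477). Without replicate 2, whose value of 10.74 lay below the other 2 arrays, the difference was -0.43 (adjusted p = 0.0415). It was the 1 member called lower there, where 3.72% of all genes were. Against PreDP, where 15.8% of all genes were higher in Tak1-deficient SM&M1 cells, Ms4a4b (2.46, adjusted p = 1.01e-06), Ms4a4c (1.26, 0.00116) and Ms4a6c (0.71, 0.00736) were higher, 3 of 4, while Ms4a6b differed by 0.08 (0.830) and Ms4a6d by 0.84 (0.209). In that count Ms4a4c has the limit of the filter. Without replicate 2 the difference of Ms4a6b from PreDP was 0.41 and passed (adjusted p = 0.0298), and that of Ms4a6d was 1.35 (0.0330). A test that was missed does not show equal levels.

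Ordered by mean, Ms4a4b, Ms4a4c, Ms4a6c and Ms4a6d ran M2, SM&M1, Tak1-deficient SM&M1, PostDP and PreDP from high to low, and Ms4a6b ran M2, SM&M1, PostDP, Tak1-deficient SM&M1 and PreDP. Of the 20 neighbouring pairs in these orders, 8 differed by the test. They include PostDP over PreDP for Ms4a4c, which has the limit of the filter. The difference did not pass between M2 and SM&M1 for Ms4a4b and Ms4a6b, although their arrays did not overlap. It also did not pass between Tak1-deficient SM&M1 and PostDP for Ms4a4b and Ms4a4c, and between Tak1-deficient SM&M1 and PreDP for Ms4a6b. For Ms4a6c only the pair of M2 and SM&M1 passed among neighbours, and for Ms4a6d no pair did. M2 cells exceeded Tak1-deficient SM&M1 cells for 4 of the 4 members other than Ms4a6d, where 6.27% of all genes were higher, by 2.32 ± 0.20 for Ms4a4b, 3.51 ± 0.23 for Ms4a4c, 2.63 ± 0.23 for Ms4a6b and 1.48 ± 0.17 for Ms4a6c, with adjusted p from 1.71e-06 to 0.000107. The difference of Ms4a6d, 2.58 ± 0.47, has the limit of the filter, since none of its Tak1-deficient arrays was above the median.

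Along the chromosome the order runs Ms4a7, Ms4a4a, Ms4a4c, Ms4a4b, Ms4a6c, Gm8369, Ms4a6b, Ms4a4d, Ms4a6d, Ms4a2 and Ms4a3. Of 18 other family genes listed, 14 were measured and 6 were tested, and 0 of the 6 passed in any of the 4 comparisons by limma, with 0 at an unadjusted p under 0.05. Their median differences were 0.25 with PostDP against PreDP, -0.08 with SM&M1 against PostDP, 0.06 with M2 against SM&M1 and 0.37 with Tak1-deficient SM&M1 against SM&M1. Those 6 were Ms4a1, Ms4a3, which is known from myeloid progenitors, Ms4a7, Ms4a15 and the related Tmem176a and Tmem176b. Ms4a4d, between Ms4a6b and Ms4a6d, was above its array's median in 1 array and was not tested. It read 7.14, 6.44 and 6.21 in M2 arrays, against 5.99, 5.29 and 5.38 in SM&M1 arrays, which do not overlap, and in a fit of all genes without the filter its difference was 1.05 ± 0.41 (adjusted p = 0.481). In Tak1-deficient SM&M1 arrays Ms4a4d read 4.25, 5.33 and 4.82.

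**Figure D3:**
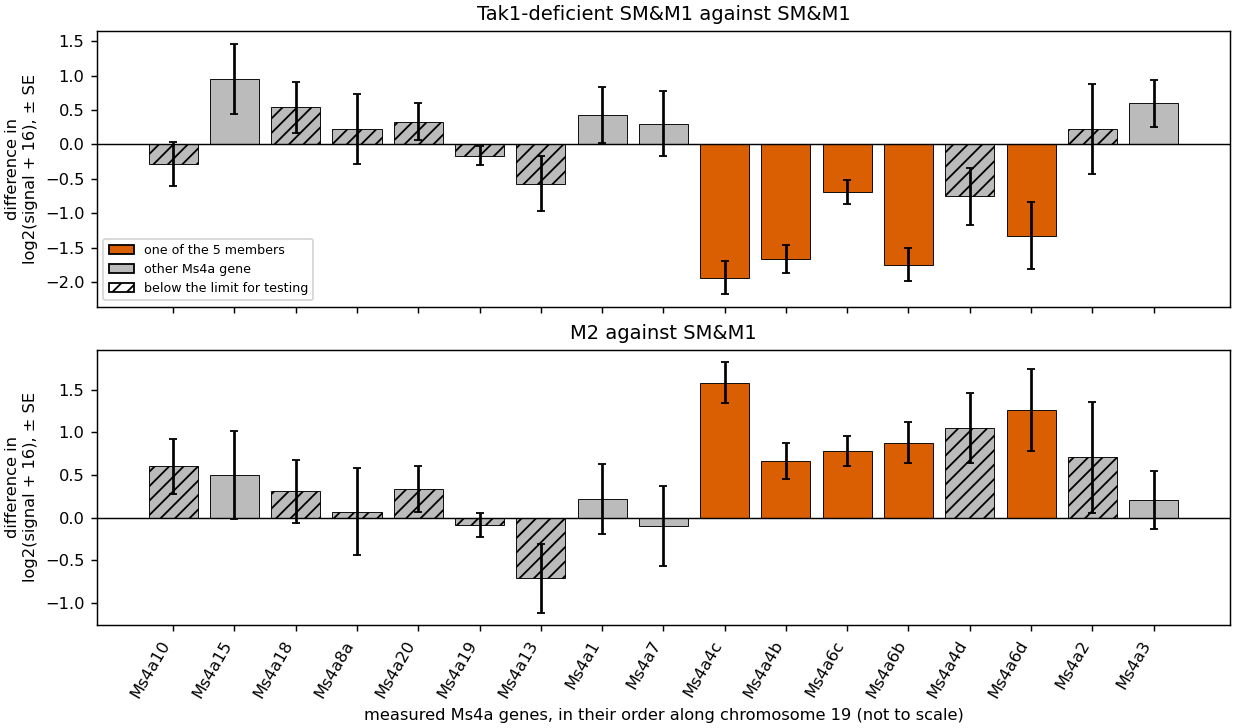
Differences in log2(signal + 16) with standard errors for the measured Ms4a genes in their order along chromosome 19, not to scale, from a fit of all genes without the filter, with Tak1-deficient SM&M1 cells (top) and M2 cells (bottom) set against SM&M1 cells. Members are orange, and hatched genes did not pass the filter. The members stand below 0 in the top panel and above 0 in the bottom one, as do Ms4a4d (-0.75 and 1.05) and Ms4a10 (-0.28 and 0.60). Ms4a13 (-0.57) and Ms4a19 (-0.16) are also below 0 in the top panel. Ms4a2 (0.71), Ms4a15 (0.50) and, by less, Ms4a1, Ms4a3, Ms4a8a, Ms4a18 and Ms4a20 are also above 0 in the bottom one.

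Since Ms4a6c and Ms4a6d are known from macrophages, 19 macrophage genes of 20 listed were read in the same arrays. Their summed signal was 1578, 4797 and 3127 in Tak1-deficient SM&M1 arrays, 2654, 1260 and 1514 in M2 arrays, 2478, 1128 and 1296 in SM&M1 arrays, 1274, 1418 and 1458 in PostDP arrays and 862, 1125 and 1163 in PreDP arrays. Replicate 1 of M2 and of SM&M1 stood above the others of its group, as did Tak1-deficient SM&M1 replicates 2 and 3. Between 3 and 10 of the 19 genes were above the array's median in each array. Of the 8 macrophage genes tested, 0 passed by limma in any of the 4 comparisons, with 1 at an unadjusted p under 0.05 in each of PostDP against PreDP (higher), M2 against SM&M1 (lower) and Tak1-deficient SM&M1 against SM&M1 (higher). Their median difference was 0.03 with M2 against SM&M1 and 0.73 with Tak1-deficient SM&M1 against SM&M1. The summed signal of 6 measured monocyte genes was 2535, 2379 and 5971 in Tak1-deficient SM&M1 arrays, 4345, 822 and 979 in M2 arrays and 5878, 3206 and 3419 in SM&M1 arrays. Of the 5 tested, 0 rose and 1 fell with M2 against SM&M1, F13a1 by -2.85 ± 0.22 (adjusted p = 4.59e-05), where 1.38% of all genes fell. With Tak1-deficient SM&M1 against SM&M1, 0 of the 5 passed. The part of the macrophage and monocyte genes in the members' values was not tested.

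Csf1r, the receptor macrophages need to survive, read 8.57, 7.46 and 7.35 in M2 arrays, against 8.55, 7.21 and 7.70 in SM&M1 arrays. Lyz2, lysozyme of myeloid cells, read 9.53, 7.37 and 7.13 in M2 arrays, against 9.46, 6.71 and 6.14 in SM&M1 arrays. Both groups overlapped for both genes. In Tak1-deficient SM&M1 arrays Csf1r read 7.70, 9.52 and 8.59 and Lyz2 read 7.40, 9.85 and 9.79. C1qa, a complement gene of tissue macrophages, was near the floor, 4.20 to 5.19, outside Tak1-deficient SM&M1 replicates 2 and 3, which read 5.86 and 6.99. Cd163, another listed gene, was below the median in every array. It read 6.23, 6.32 and 6.21 in M2 arrays, against 4.37, 4.98 and 4.39 in SM&M1 arrays, which do not overlap. With M2 against SM&M1, Fcgr3 differed by 0.94 ± 0.56 (adjusted p = 0.703) and Axl by -0.77 ± 0.21 (adjusted p = 0.0866), and neither passed. Tak1-deficient SM&M1 replicate 2 had the highest macrophage sum and the lowest Ms4a6d of its group, 4.67. Replicate 3 had the next highest sum and the highest Ms4a6d of that group, 6.32. Ms4a6c read 8.02, 8.04 and 8.24 in Tak1-deficient SM&M1 replicates 1, 2 and 3. Without replicate 1 of both M2 and SM&M1, M2 exceeded SM&M1 by 0.90 for Ms4a6c (adjusted p = 0.110). For Ms4a6d the difference was then 1.40 (adjusted p = 0.594). With all arrays these differences were 0.78 and 1.26. Of the dendritic cell markers, 10 of 11 listed were measured, and their summed signal was higher in each SM&M1 and M2 array than in any PostDP or PreDP array. It was 8471, 12639 and 6428 in Tak1-deficient SM&M1 arrays, 12881, 13205 and 14063 in M2 arrays, 10032, 10210 and 11845 in SM&M1 arrays, 2488, 2106 and 2333 in PostDP arrays and 2234, 1369 and 1500 in PreDP arrays. With SM&M1 against PostDP, 2 of 8 tested rose, Ccr7 by 3.01 ± 0.27 (adjusted p = 1.22e-05), a homing receptor that maturing thymocytes also make and that the maturation list holds, and Bst2 by 1.75 ± 0.35 (adjusted p = 0.00540), which the interferon list holds. Itgax, the CD11c gene of dendritic cells, averaged 6.86 in SM&M1 and 6.63 in PostDP arrays, a difference of 0.23 that did not pass (adjusted p = 0.865). The part of the dendritic cell markers in the members' values was not tested.

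Vsig4, a macrophage receptor reported to work with Ms4a6d, read 5.67 to 6.74 in 14 arrays and 8.36 in Tak1-deficient SM&M1 replicate 2.

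**Figure D4:**
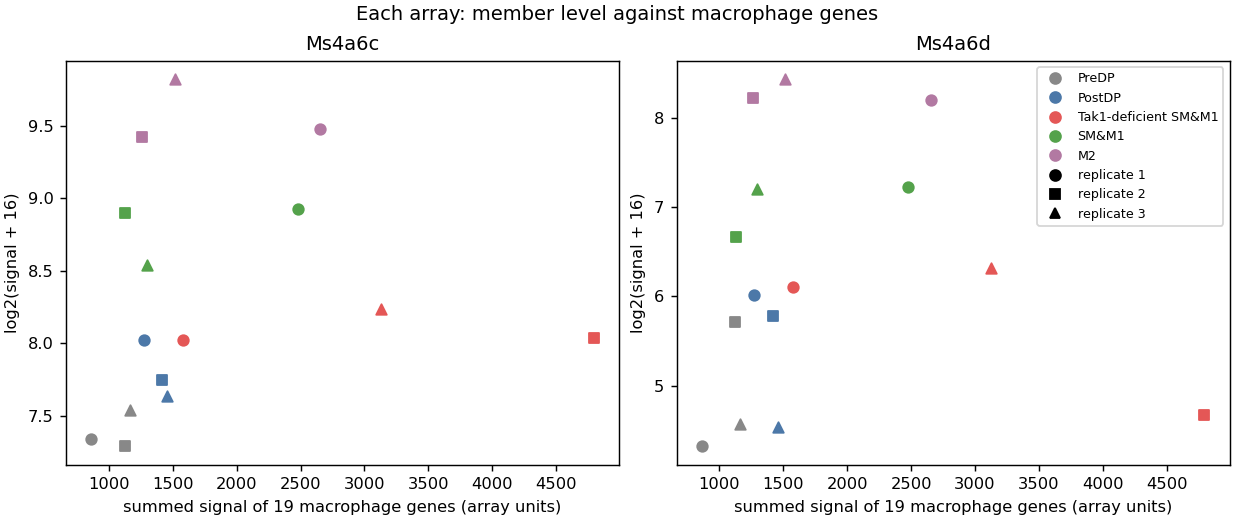
Ms4a6c and Ms4a6d (log2(signal + 16), y axis) against the summed signal of 19 macrophage genes (array units, x axis), one point per array, coloured by group. Tak1-deficient SM&M1 replicate 2 lies at a sum of 4797 and an Ms4a6d value of 4.67, and replicate 3 at 3127 and 6.32. M2 replicate 1 lies at a sum of 2654 and an Ms4a6d value of 8.20.

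A gene can be read by several probe sets, and names ending in x_at or s_at can match transcripts of related genes, which holds for the probe set used for Ms4a6d and for both probe sets of Ms4a4c. A fit of the 21488 tested probe sets gave the others that passed the filter. Ms4a6d has 2 more, which did not pass it. One read 7.06, 7.18 and 7.04 in M2 arrays, against 6.71, 6.35 and 6.34 in SM&M1 arrays, and 5.10, 4.17 and 5.83 in PreDP arrays. The other was near the floor in M2 arrays, at 4.04, 4.03 and 4.07, as in PreDP arrays, at 4.03, 4.02 and 4.07, so it did not show the higher level in M2 read by the probe set used. The other probe set of Ms4a4c differed by 2.63 with SM&M1 against PostDP (adjusted p = 7.80e-06), by 1.79 with M2 against SM&M1 (0.000799) and by -2.22 with Tak1-deficient SM&M1 against SM&M1 (0.000306), all called. The other probe set of Ms4a6c read 10.78, 10.99 and 11.10 in M2 arrays, against 8.92, 8.21 and 8.19 in SM&M1 arrays. That is a difference of 2.52 (adjusted p = 6.81e-05), against 0.78 for the probe set used, so the size of this step depends on the probe set. It read 7.40, 7.40 and 7.24 in Tak1-deficient SM&M1 arrays, a difference of -1.09 from SM&M1 (adjusted p = 0.0241). The other probe set of Ms4a4b read 9.34, 9.95 and 9.17 in M2 arrays, against 8.11, 7.91 and 7.70 in SM&M1 arrays, and 6.45, 4.71 and 5.99 in Tak1-deficient SM&M1 arrays. Its difference of -2.19 with Tak1-deficient SM&M1 against SM&M1 passed (adjusted p = 0.0234), while 1.58 with M2 against SM&M1 (0.102) and 0.48 with PostDP against PreDP (0.583) did not. For Ms4a6b the other probe set did not pass in any comparison, at 1.19 with PostDP against PreDP (0.0686), 0.97 with SM&M1 against PostDP (0.156), 1.31 with M2 against SM&M1 (0.165) and -1.54 with Tak1-deficient SM&M1 against SM&M1 (0.0792).

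**Figure D5:**
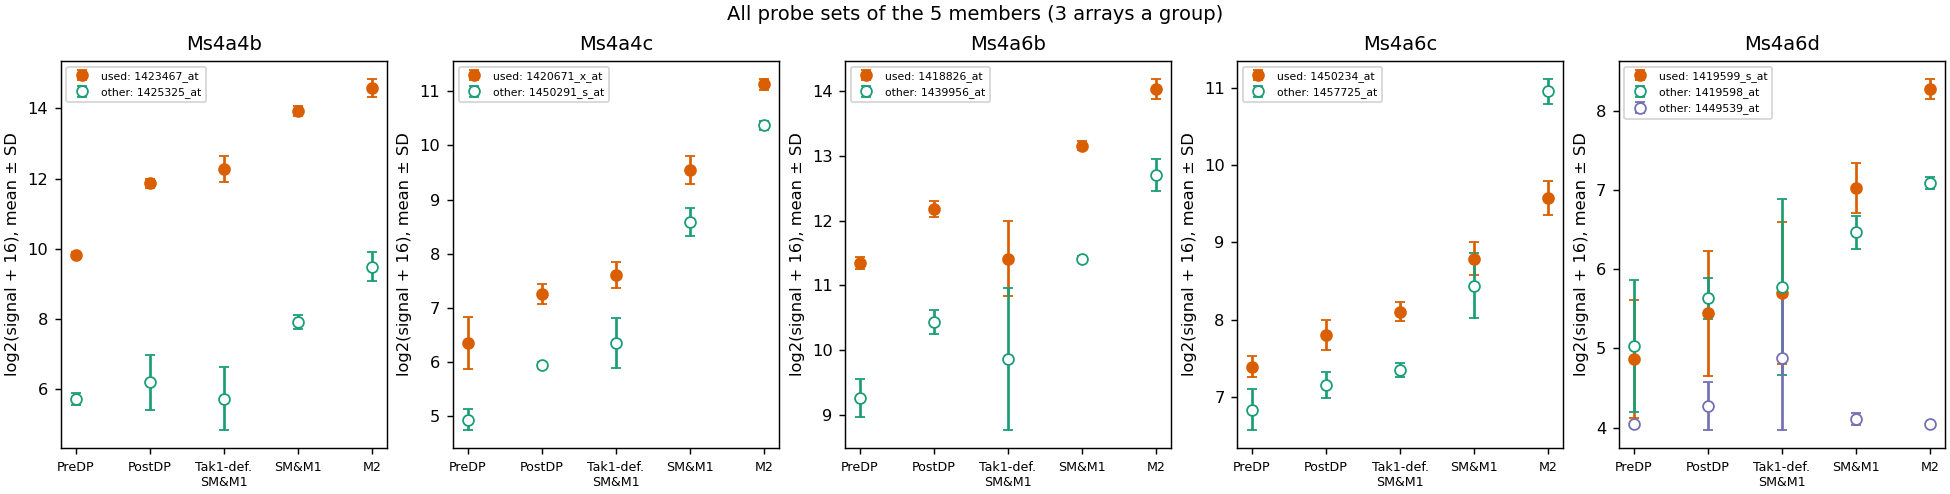
Mean log2(signal + 16) with SD over 3 arrays for every probe set of the 5 members, filled for the one used and open for the others, by group. The other probe set of Ms4a6c reads 10.78 to 11.10 in M2 arrays, against 8.19 to 8.92 in SM&M1 arrays.

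GITR, the partner reported for Ms4a4b, is encoded by Tnfrsf18. It read 11.18, 11.56 and 11.07 in Tak1-deficient SM&M1 arrays, against 12.00, 12.51 and 12.83 in SM&M1 arrays, a difference of -1.18 ± 0.22 (adjusted p = 0.0194). SM&M1 exceeded PostDP by 2.14 ± 0.22 (adjusted p = 4.09e-05), while M2 differed from SM&M1 by -0.62 ± 0.22 (adjusted p = 0.258).

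Genes listed by pathway give the surroundings. Of all genes tested, 4.14% fell with SM&M1 against PostDP, 1.38% fell with M2 against SM&M1 and 0.430% rose with Tak1-deficient SM&M1 against SM&M1, beside the shares given above. Of 29 interferon-stimulated genes, 23 rose and 0 fell with SM&M1 against PostDP, and 14 fell and 0 rose with Tak1-deficient SM&M1 against SM&M1, with medians of 1.73 and -1.10. With M2 against SM&M1, 1 of the 29 rose. Of 19 maturation and egress genes, 13 rose and 1 fell with SM&M1 against PostDP, 4 rose and 1 fell with M2 against SM&M1, and 4 fell with Tak1-deficient SM&M1 against SM&M1. This list also holds Rag1, Rag2, Cd69 and Ccr9, whose highest group means were in PreDP or PostDP arrays. The gene that fell was Rag1 with SM&M1 against PostDP (-3.92 ± 0.93, adjusted p = 0.0141) and Ccr9 with M2 against SM&M1 (-2.30 ± 0.35, adjusted p = 0.00333). Of 20 NF-kB pathway genes, 9 rose and 0 fell with PostDP against PreDP, and 6 rose and 0 fell with SM&M1 against PostDP. Of the same genes, 6 fell and 0 rose with Tak1-deficient SM&M1 against SM&M1, and 2 fell and 0 rose with M2 against SM&M1.

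The genes whose values over the 15 arrays were most like a member's were ranked by Pearson's r among 11279 genes, as a description. The arrays form 5 groups, so an r mainly reflects group means. St8sia6, a sialyltransferase, was first for both Ms4a4c and Ms4a6c (r = 0.984 with each), and was first for both again without Tak1-deficient SM&M1 replicate 2 (0.990 and 0.985). It averaged 11.81 in M2 arrays, against 9.59 in SM&M1 arrays. For Ms4a6c, Psen2 (0.978) and Tlr1, a receptor for bacterial lipopeptides (0.975), followed with and without that array. For Ms4a4c, Pced1b (0.981) and H2-Q5 (0.977) followed, and H2-Q5 ranked 6 without the array. The genes nearest to the other members depended on it. For Ms4a4b they were Ctss, the protease cathepsin S (0.983), Slfn1 (0.981) and Phf11d (0.979), which ranked 4, 5 and 6 without the array, behind Ctsw (0.988), Tgfbr2 (0.988) and Krtcap3 (0.985). For Ms4a6b they were Ski (0.981), Pde3b (0.971) and Mndal (0.968), which ranked 5, 8 and 11 without it, and the first was then Ifit1bl1 (0.982). For Ms4a6d they were Scg5 (0.946), Ppp3cc, a calcineurin subunit (0.945), and Ncmap (0.944), which ranked 15, 4 and 10 without it, and the first was then Sh3bp5 (0.971). Among the members themselves r ran from 0.879 to 0.974.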

How the data were processed

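RNA of sorted thymocytes was labelled after 1 round of amplification and hybridised to 1-colour arrays, per the labels' protocols. The deposited intensity values are linear signals per probe set, which the authors had scaled so that each array's mean, after trimming 2% at each end, is the same, as the values show. The algorithm behind them is not given in the sources used here. Of 45101 probe sets, 34945 name 1 gene, 932 name several and were not used, 9160 are unnamed and 64 are controls. Symbols were updated through Entrez identifiers for 34741 probe sets. Signals were read as log2(signal + 16), with 1 probe set per gene, and genes above the array's median in at least 3 arrays were tested (11871). limma 3.58.1 in R 4.3.3 fitted 5 group means (10 residual degrees of freedom) with eBayes and Benjamini-Hochberg adjustment, tested on simulated data. The members and gene lists were chosen with earlier results of these data known. Named genes are the members, tested family genes, the 3 genes most like each member by r, Map3k7, Tnfrsf18, Vsig4 and marker genes. Same-numbered PostDP and PreDP arrays (r of deviations 0.339, 0.275 and 0.411) and M2 and SM&M1 arrays (0.553, 0.436 and 0.326) deviated together. SM&M1 and PostDP arrays (-0.0103, 0.124 and 0.0260) and Tak1-deficient SM&M1 and SM&M1 arrays (-0.174, -0.192 and -0.244) did not. The main fit has no replicate block and so leaves this pairing out. A block was fitted only as an alternative. The number of arrays limits the precision. Alternatives changed the filter, the normalization, the pseudocount, the arrays in the fit, the weights and the block. The fit of all probe sets that name 1 gene and the comparisons of Tak1-deficient SM&M1 with PostDP, PreDP and M2 arrays without its replicate 2 were added after seeing the data.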

Additional observations from a re-analysis of the deposited data

How the results depend on the processing

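No result changed direction under any alternative run. The counts here are over the 5 members, Ms4a6d included with its limit and Ms4a4c with its limit against PreDP. With arrays centred on their medians, which moved the median of all genes by -0.13, 0.06, -0.05 and -0.09 in the 4 comparisons (PostDP against PreDP, SM&M1 against PostDP, M2 against SM&M1 and Tak1-deficient SM&M1 against SM&M1), the members called numbered 1, 3, 1 and 3, against 3, 5, 2 and 3. Leaving out 1 array gave 1 to 3 for PostDP against PreDP (1 without PreDP replicate 1 or PostDP replicate 3), 3 to 5 for SM&M1 against PostDP (3 without PostDP replicate 2 or 3 or SM&M1 replicate 2), 1 to 4 for M2 against SM&M1 (1 without any of its 6 arrays, 4 without Tak1-deficient SM&M1 replicate 2) and 3 to 3 for the Tak1-deficient cells. Without replicate 1 of both SM&M1 and M2 the count was 3 for SM&M1 against PostDP and 1 for M2 against SM&M1. The count for M2 against SM&M1 was also 1 without a filter and with quantile normalization and 4 with array weights. With the replicate block it was 1 over all arrays and 4 within these groups. With Tak1-deficient SM&M1 against SM&M1 it was 0 in limma fits of only these groups, without and with a replicate block, where each member had an unadjusted p under 0.05 and 5 and 0 genes of all were called. The block moved no other count of members by over 1.5 times, and Ms4a6d lost its call for SM&M1 against PostDP with it (adjusted p = 0.0746). Neighbouring pairs that differ in the order of levels were 8, or 4 with median centring, 5 without replicate 1 of both SM&M1 and M2, and 5 to 12 without 1 array (5 without PostDP replicate 3 or SM&M1 replicate 2, 12 without Tak1-deficient SM&M1 replicate 2). Fits with fewer arrays have less to estimate the spread from. Other causes were not tested. Dim signal limits Ms4a6d.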

Other observations

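Ms4a1, the CD20 gene of B cells, read 7.07, 7.67 and 8.26 in Tak1-deficient SM&M1 arrays, 8.08, 7.12 and 7.17 in M2 arrays and 8.21, 6.92 and 6.57 in SM&M1 arrays. Its highest arrays were Tak1-deficient SM&M1 replicate 3 and replicate 1 of M2 and of SM&M1. The summed signal of the neutrophil markers was 514, 4177 and 5437 in Tak1-deficient SM&M1 arrays, 4392, 652 and 588 in M2 arrays and 3997, 357 and 595 in SM&M1 arrays, so replicate 1 of M2 and of SM&M1 stood apart in both. The median of the effector or memory T cell markers, relative to PreDP, was 0.46, 0.54 and 1.87 in Tak1-deficient SM&M1 arrays, 2.24, 0.45 and 0.13 in M2 arrays and 2.17, 0.31 and 0.36 in SM&M1 arrays. The part of these markers in the members' values was not tested.

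Regulatory T cell genes, whose cells the CD25 gate was set to leave out, rose in part with the members up to SM&M1. Of 9 measured, Foxp3 and Il10 did not pass the filter. Of 7 tested, 4 rose and 1 fell with PostDP against PreDP (median 1.46), and 4 rose and 1 fell with SM&M1 against PostDP (median 1.84). The gene that fell with PostDP against PreDP was Nrp1, by -2.08 ± 0.42 (adjusted p = 0.00411 by limma). Il2ra, the CD25 gene, passed in neither comparison, at 0.16 (adjusted p = 0.871) and 0.55 (adjusted p = 0.461) by limma. With M2 against SM&M1 and with Tak1-deficient SM&M1 against SM&M1, 0 rose and 1 fell in each. Izumo1r, the folate receptor 4 gene, averaged 11.97 in SM&M1 and 10.13 in PostDP arrays, a difference of 1.84 ± 0.37 (adjusted p = 0.00550 by limma). Ikzf2, the gene of the factor Helios, averaged 11.55 in SM&M1 and 13.21 in PostDP arrays, a difference of -1.66 ± 0.16 (adjusted p = 1.83e-05 by limma). Ikzf2 averaged 10.36 in M2 and 11.55 in SM&M1 arrays, a difference of -1.19 ± 0.16 (adjusted p = 0.00134 by limma).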
